A study of Rattus norvegicus with 8 samples.

Results

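The genes described here are those of mitosis and DNA replication, measured in 2 vessels of newborn rats, the aorta and the ductus arteriosus (DA), which joins the pulmonary artery to the aorta before birth. The list holds 43 genes, 29 that act in mitosis and 14 that act in DNA replication or in making its nucleotides. A gene was kept where the array annotation gave a probe set that symbol alone, and the probe set with the highest mean was used. This left 37 genes of the 14506 tested, 25 of mitosis and 12 of replication. The annotation did not name Mki67, Cenpe, Cenpf, Anln, Mcm3 and Mcm4, which are not analysed here.

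The samples came from 2 inbred strains, Brown-Norway (BN), in which patent ductus arteriosus (failed closure) occurs naturally, and Fischer344 (F344). The 4 groups were F344 DA, F344 aorta, BN DA and BN aorta, all from full-term neonates taken 1 h after birth and given no treatment that the labels name. Each group had 2 replicate Affymetrix Rat Gene 1.0 ST arrays, made from 150 ng of total RNA of pooled tissues. The labels do not say how many animals entered a pool or that replicates came from separate animals, and p-values therefore reflect only the spread among these arrays, which may be technical.

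A dividing cell first copies its DNA and then separates the copies. Cyclin E opens S phase, the MCM helicase is loaded at origins and unwinds the DNA, and the PCNA clamp holds the polymerases on it. In mitosis, CDK1 with cyclin B starts chromosome condensation, kinesin motors build the spindle, the spindle checkpoint delays anaphase until all chromosomes are attached, and the central spindle directs cytokinesis. Transcripts of both groups are made in cycling cells, the replication genes mostly under E2F factors from late G1 and the mitotic genes later, through the CHR element and CCAAT boxes of their promoters. In the ductus, smooth muscle proliferation belongs to the intimal thickening that precedes closure.

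The promoters of the genes carried these elements. RefSeq promoters (assembly GRCr8, 250 bases before to 50 bases after the start) matched 31 of the 37 genes, 22 mitotic and 9 replication genes. The letters TTTGAA or TTTAAA, the common cores of the CHR element, were in 90.9% of mitotic promoters (20 of 22), in 22.2% of replication promoters (2 of 9) and in 28.3% of the 33469 promoters in the table. The letters TTTCCCGC or TTTGGCGC, both forms of the E2F site, were in 55.6% of replication promoters (5 of 9), in 0 of the 22 mitotic promoters and in 1.45% of all promoters. CCAAT was in 77.3% of mitotic, 55.6% of replication and 37.5% of all promoters. Members had 1 promoter each. Among 11950 promoters of genes tested, taken in the same way, the shares were 23.8% (CHR cores), 2.25% (E2F forms) and 38.4% (CCAAT). Both strands were searched and each motif was counted on its own, with TTTAAA reading the same on either strand. A match describes the letters and does not show that a factor binds. Kif20a, Ect2 and Kif4a, also higher in BN DA, are not shown. In the 120 bases before the start Kif20a holds TTTAAA and CCAAT. Ect2 and Kif4a hold CCAAT alone there, and their TTTGAA lies outside those bases. The 120 bases before the start are shown for 4 mitotic genes that were higher in BN DA and for 2 replication genes that hold an E2F form, with the matched motifs in capitals (ATTGG and TTCAAA are CCAAT and TTTGAA on the other strand).
Nusap1 (chr3:127057175-127057294, plus strand): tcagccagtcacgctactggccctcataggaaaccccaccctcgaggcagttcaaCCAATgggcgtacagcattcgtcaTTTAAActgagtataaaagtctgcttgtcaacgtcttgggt
Kif11 (chr1:244536747-244536866, plus strand): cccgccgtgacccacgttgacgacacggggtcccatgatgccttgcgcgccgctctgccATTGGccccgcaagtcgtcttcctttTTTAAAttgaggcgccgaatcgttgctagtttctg
Bub1 (chr3:135504922-135505041, minus strand): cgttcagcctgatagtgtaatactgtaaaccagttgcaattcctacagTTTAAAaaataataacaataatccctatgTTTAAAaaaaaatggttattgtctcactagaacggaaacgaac
Top2a (chr10:84473094-84473213, minus strand): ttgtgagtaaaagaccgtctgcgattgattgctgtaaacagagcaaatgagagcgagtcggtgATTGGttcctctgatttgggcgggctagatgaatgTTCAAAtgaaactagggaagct
Mcm5 (chr19:13488693-13488812, plus strand): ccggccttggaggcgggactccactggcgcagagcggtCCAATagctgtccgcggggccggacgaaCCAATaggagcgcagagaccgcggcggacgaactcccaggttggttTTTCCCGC
Tyms (chr9:120776084-120776203, minus strand): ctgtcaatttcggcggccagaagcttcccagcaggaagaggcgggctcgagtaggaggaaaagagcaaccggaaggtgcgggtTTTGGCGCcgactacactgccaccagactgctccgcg

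Values are log2 intensities as deposited, so a difference of 1 is a 2-fold change. Members' means over the 8 arrays lay between 6.93 and 10.10, above or close to the median of all values (7.01). The BN DA replicates differed most from each other, with an SD of the replicate difference over all genes of 0.349 against 0.196 to 0.258 in the other groups. BN DA replicate 1 also stood apart in thymocyte and lymphocyte markers, with a mean of 6.92 over 11 genes against 5.85 to 5.95 on the other arrays, and Rag1, which recombines antigen receptor genes in immature lymphocytes, was at 8.20 there and between 5.58 and 5.95 elsewhere. BN DA replicate 2 stood apart in heart muscle genes, with troponin T (Tnnt2) at 9.24 against 6.77 to 7.47 elsewhere and cardiac actin (Actc1) at 9.71 against 7.45 to 7.98, and the mean of 10 such markers was 7.13 against 6.57 to 6.79.

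F344 DA had the lowest levels of cell cycle genes and BN DA the highest. In F344, the mean of the 25 mitotic genes was 8.40 and 8.26 on the DA arrays and 8.50 and 8.55 on the aorta arrays, and in BN it was 8.67 and 8.76 on the DA arrays and 8.56 and 8.68 on the aorta arrays. Both F344 DA arrays were below the other 6, and BN DA overlapped with BN aorta. For the 12 replication genes, the F344 means were 8.54 and 8.47 for the DA and 8.69 and 8.72 for the aorta, and the BN means 8.80 and 8.78 for the DA and 8.70 and 8.80 for the aorta. Here too the F344 DA arrays were lowest, while both aortas overlapped with each other and BN aorta with BN DA. Gene by gene, F344 DA was the lowest group for 35 of the 37 genes and BN DA the highest for 24. The share of all genes with such an order was not counted, so these counts have no background beside them. Both F344 DA arrays were below the other 6 for 16 of 25 mitotic and 5 of 12 replication genes (Ccne2, Mcm5, Mcm6, Mcm7 and Pcna), which was so for 16.8% of all genes and for 26.7% of the 7606 genes in the members' range of mean level. Genes in that range were themselves lowest on the F344 DA arrays, with means of 8.26 and 8.22 against 8.34 to 8.44 on the other 6. In pooled tissue, a lower share of cycling cells, less transcript per cell and this shift with level cannot be told apart.

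**Figure D1:**
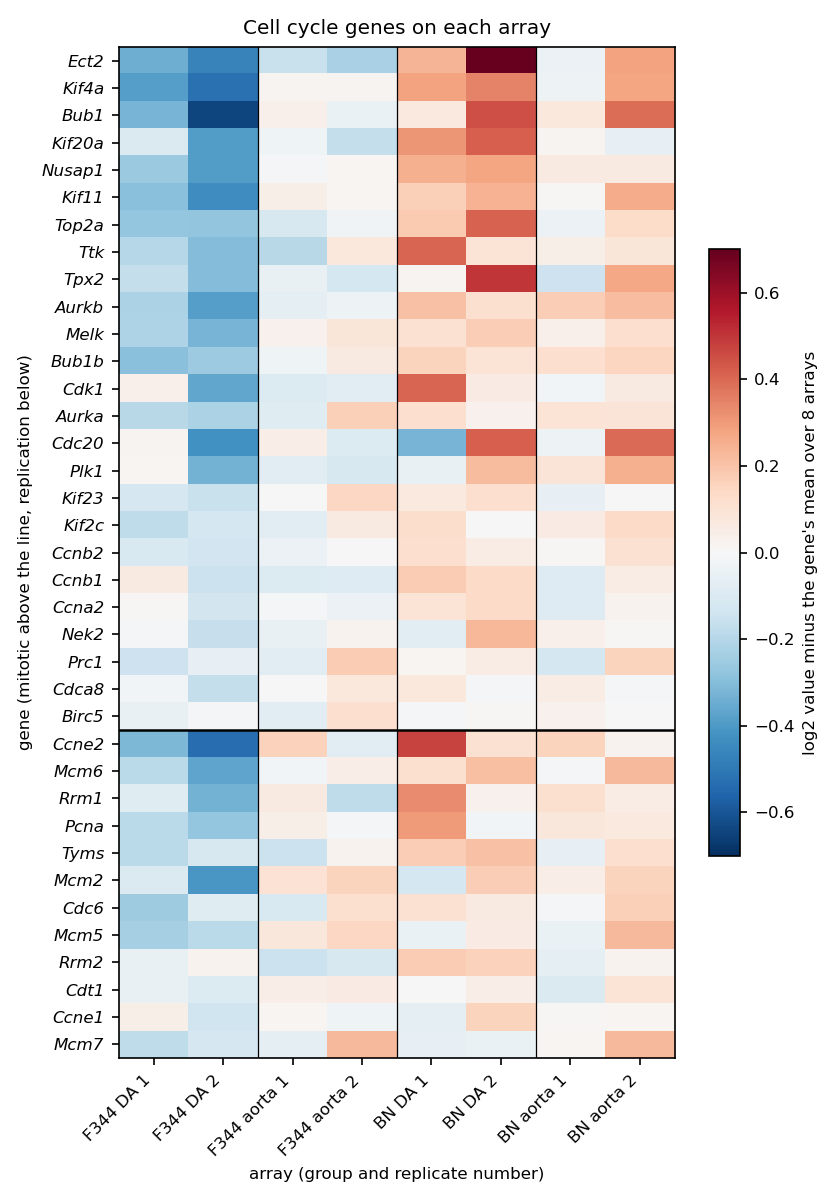
Log2 value of each of the 37 genes minus its mean over the 8 arrays (colour), with a column for each array and a row for each gene, mitotic genes above the line and replication genes below it. The 2 F344 DA columns are the lowest for 21 genes, and BN DA has the highest group mean for 24.

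**Figure D2:**
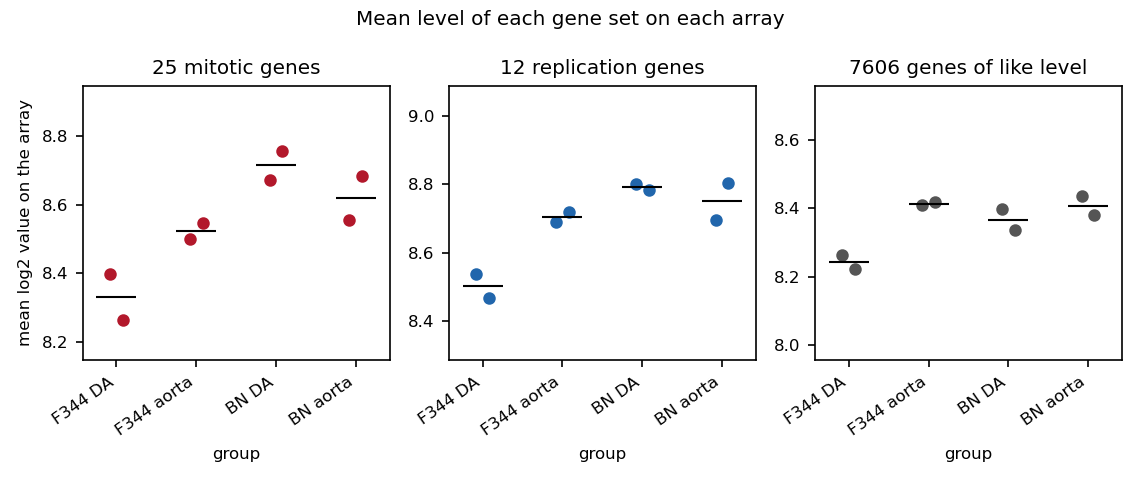
Mean log2 value on each array for the mitotic genes, the replication genes and genes of like level, by group; a point is an array and a bar the mean of 2. The mitotic genes range from 8.26 on F344 DA replicate 2 to 8.76 on BN DA replicate 2.

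The comparison of the strains within the DA asks whether this vessel differs in its cell cycle transcripts between a strain prone to failed closure and one that is not. All 37 genes had a positive difference (BN minus F344), against 49.5% of all genes and 66.7% of those in the members' range of level. With other scalings fewer were positive, 35 with repeated quantile normalization or cyclic loess and 31 with arrays centred on brighter genes or on genes of the members' level, and 35 without BN DA replicate 2. Of the 37, 8 were higher in BN DA at an adjusted p under 0.05 (limma, Benjamini-Hochberg over 14506 genes) and 0 lower. Of all genes tested, 4.53% were called in either direction and 2.43% as higher in BN, and 3.88% of those in the range were called higher. The 8 genes were Ect2, Kif4a, Bub1, Kif20a, Nusap1, Kif11 and Top2a of mitosis and Ccne2 of S phase entry. The median difference was 0.40 over the mitotic genes and 0.27 over the replication genes, against 0.00 over all genes and 0.10 in the members' range of level. The arrays of both strains did not overlap, with BN higher, for 31 of the 37 genes, and this was so for 25.9% of all genes and 38.5% of those in the range. The 6 genes whose arrays overlapped were Plk1, Nek2, Cdc20, Birc5, Ccne1 and Mcm2.

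In order of size the called differences were those of Ect2, Kif4a, Bub1, Ccne2, Kif20a, Nusap1, Kif11 and Top2a, and they are given by role, first the spindle and cytokinesis. Ect2, the exchange factor that activates RhoA for the cleavage furrow, was at 8.56 and 8.44 in F344 DA, 9.14 and 9.61 in BN DA, 8.75 and 8.68 in F344 aorta, and 8.87 and 9.18 in BN aorta. The BN DA arrays were above the F344 DA arrays and above F344 aorta, and BN aorta overlapped with BN DA. The difference within the DA was 0.88 ± 0.18 (SE, n = 2 arrays each), 1.84-fold (limma, adjusted p = 0.0288). Kif4a, a chromokinesin that acts on chromosome arms and the central spindle, was at 7.75 and 7.61 in F344 DA, 8.42 and 8.48 in BN DA, 8.16 and 8.15 in F344 aorta, and 8.10 and 8.41 in BN aorta. Its BN DA arrays were above all others and its F344 DA arrays below all others, and the difference was 0.77 ± 0.14, 1.70-fold (limma, adjusted p = 0.0211). Kif20a, a kinesin of the central spindle, was at 8.81 and 8.52 in F344 DA, 9.22 and 9.33 in BN DA, 8.88 and 8.74 in F344 aorta, and 8.93 and 8.85 in BN aorta. BN DA stood above all arrays of the other 3 groups, and the difference was 0.61 ± 0.14, 1.52-fold (limma, adjusted p = 0.0412). Kif11, the motor that pushes the spindle poles apart, and Nusap1, which bundles spindle microtubules, were higher in BN DA by 0.57 and 0.59. Of the 5 spindle motor and microtubule genes 3 were called, and their median difference was 0.57. Tpx2, which activates Aurora A on the spindle (0.49, adjusted p = 0.159), and Kif2c, which takes microtubules apart (0.21, adjusted p = 0.337), did not pass. Kif23 and Prc1, which build the central spindle with Kif20a, had differences of 0.23 and 0.13 and did not pass either.

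Among checkpoint genes, Bub1, a kinase at unattached kinetochores, was at 8.42 and 8.11 in F344 DA, 8.82 and 9.20 in BN DA, 8.78 and 8.70 in F344 aorta, and 8.82 and 9.14 in BN aorta. Both F344 DA arrays were below the other 6. The difference within the DA was 0.74 ± 0.18, 1.67-fold, just inside the threshold (limma, adjusted p = 0.0497). The checkpoint kinases Ttk (0.50, adjusted p = 0.0849) and Bub1b (0.40, adjusted p = 0.0779) lay just outside. Cdc20, which activates the anaphase-promoting complex, had BN DA replicates 0.75 apart, the widest gap among the members in that group, and a difference of 0.25 ± 0.25. Of the chromosomal passengers, Aurkb had a difference of 0.46 (adjusted p = 0.062), while Cdca8 and Birc5 had 0.12 and 0.03, the latter with a 95% interval of -0.25 to 0.30. Top2a, the topoisomerase that untangles sister chromatids, was at 9.83 on both F344 DA arrays, 10.29 and 10.52 in BN DA, 9.99 and 10.08 in F344 aorta, and 10.06 and 10.23 in BN aorta. BN DA was highest and F344 DA lowest with no overlap, and the difference was 0.57 ± 0.13, 1.48-fold (limma, adjusted p = 0.0446).

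The genes that start mitosis had smaller differences, none of which passed. Cdk1, the mitotic kinase, was at 8.53 and 8.14 in F344 DA, 8.91 and 8.56 in BN DA, 8.40 and 8.42 in F344 aorta, and 8.48 and 8.56 in BN aorta. Its strain difference in the DA was 0.40 with a 95% interval of 0.02 to 0.78 (limma, adjusted p = 0.196). Ccnb1, the B cyclin that activates CDK1, was at 9.05 and 8.83 in F344 DA, 9.16 and 9.12 in BN DA, 8.89 and 8.90 in F344 aorta, and 8.89 and 9.04 in BN aorta, and its interval was -0.09 to 0.49 (adjusted p = 0.392). For neither gene was F344 DA below both aortas on both arrays. The cyclins Ccna2 and Ccnb2 had differences of 0.17 and 0.20. None of these 4 genes was called, and none of the 4 mitotic kinases Aurka, Plk1, Nek2 and Melk, whose differences ran from 0.16 for Nek2 to 0.41 for Melk (adjusted p = 0.0774).

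**Figure D3:**
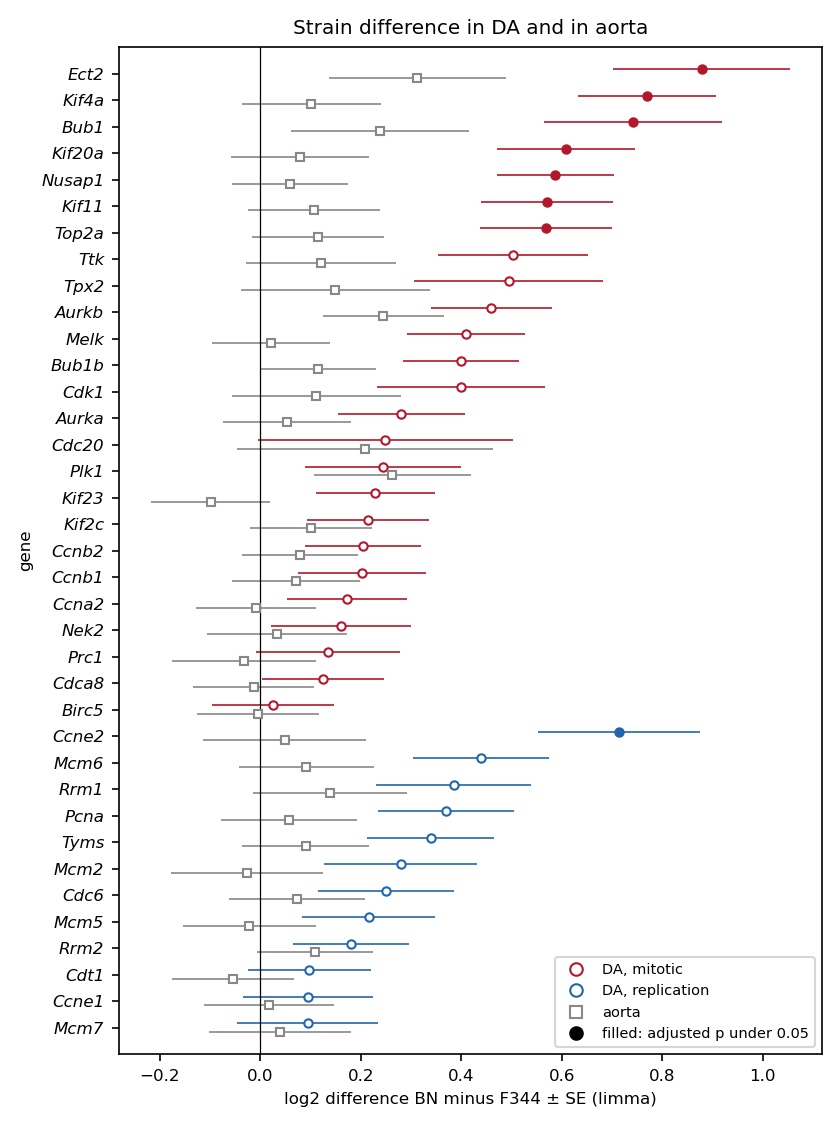
Log2 difference BN minus F344 ± SE from limma for each gene, in the DA (circles, mitotic and replication genes in different colours, filled where the adjusted p was under 0.05) and in the aorta (grey squares). All 37 circles lie above 0, from 0.03 for Birc5 to 0.88 for Ect2, and the 8 filled circles are the called genes.

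Of the replication genes, Ccne2, the E cyclin that drives entry into S phase, was at 7.64 and 7.42 in F344 DA, 8.43 and 8.06 in BN DA, 8.12 and 7.88 in F344 aorta, and 8.11 and 7.98 in BN aorta. The F344 DA arrays were below the other 6, and the difference was 0.71 ± 0.16, 1.64-fold (limma, adjusted p = 0.0419). Its partner gene Ccne1 had a difference of 0.10, and the licensing factors Cdc6 and Cdt1 had 0.25 and 0.10. Mcm2, a helicase subunit, was at 9.19 and 8.88 in F344 DA, 9.16 and 9.46 in BN DA, 9.39 and 9.44 in F344 aorta, and 9.33 and 9.45 in BN aorta. BN DA and F344 DA overlapped, and the difference of 0.28 ± 0.15 did not pass (limma, adjusted p = 0.317). The other helicase subunits ran from 0.09 for Mcm7 to 0.44 for Mcm6 (adjusted p = 0.093). Pcna, the polymerase clamp, was at 9.55 and 9.46 in F344 DA, 10.03 and 9.72 in BN DA, 9.78 and 9.73 in F344 aorta, and 9.81 and 9.80 in BN aorta. Its F344 DA arrays were the lowest of the 8, and its difference was 0.37 ± 0.14 (limma, adjusted p = 0.144). The ribonucleotide reductase genes Rrm1 (0.39) and Rrm2 (0.18) and thymidylate synthase Tyms (0.34) did not pass.

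The 8 calls rested on small margins, although the differences of these 8 genes were positive under all 21 alternatives. Their DA arrays did not overlap between strains, so only the other normalizations and centrings could have changed a sign. Without F344 DA replicate 1 or replicate 2, with only the 4 DA arrays, or with arrays centred on brighter genes or on genes of the members' level, 0 remained called, against 1 without either F344 aorta replicate, 4 without either BN aorta replicate, 7 without BN DA replicate 1 and 6 without replicate 2. With the replicate number as a block the count was 11, and 6 further genes (Melk, Bub1b, Ttk, Aurkb, Tpx2 and Pcna) were called under at least 1 alternative.

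The strain difference in the DA moved with level over all genes, so the members were set against genes of the same mean level, in 20 bins of equal size. For genes in the members' range of level, the F344 means were 8.26 and 8.22 for the DA and 8.41 and 8.42 for the aorta, and the BN means 8.40 and 8.34 for the DA and 8.44 and 8.38 for the aorta. These genes were thus also lowest on the F344 DA arrays, but not highest in BN DA. Over the median of its bin, the mitotic median for BN minus F344 in the DA was 0.30, with 23 of 25 genes above it, and the replication median was 0.17, with 11 of 12 above.

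**Figure D4:**
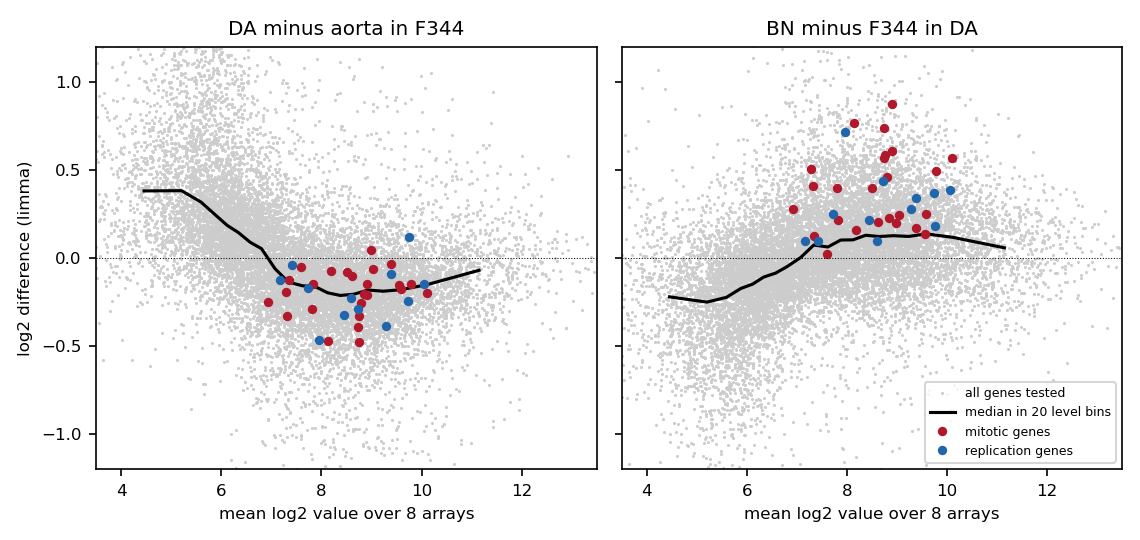
Log2 difference (limma) against mean log2 value over the 8 arrays for all genes tested (grey), with the median in 20 level bins (black line) and the mitotic and replication genes (coloured); genes with larger differences lie outside the axes. For BN minus F344 in the DA most members lie above the line, by a median of 0.30 (mitotic) and 0.17 (replication), and for DA minus aorta in F344 the median distance is 0.00 (mitotic) and -0.04 (replication).

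Within the aorta, the strains were not told apart in these genes. None of the 37 was called, with 0 at an unadjusted p under 0.05 (limma), and 0.159% of all genes were called and 5.22% were at that unadjusted p. The difference was positive for 29 of 37 genes, against 49.3% of all genes and 47.8% in the members' range of level, and the medians were 0.10 (mitotic) and 0.05 (replication). The BN arrays lay above the F344 arrays for 10 of the 37 genes, against 17.9% of all genes and 19.4% in the members' range of level. The smallest p-values were those of Aurkb (0.24 ± 0.12, adjusted p = 0.993), Ect2 (0.31 ± 0.18, adjusted p = 0.998) and Plk1 (0.26 ± 0.16, adjusted p = 0.998), none of which passed in limma. For Top2a the difference was 0.11, with a 95% interval of -0.18 to 0.41.

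In F344, DA and aorta differed in the direction of lower values in the DA. The difference was negative for 35 of the 37 genes and positive for 2, while 44.4% of all genes and 21.1% in the members' range of level were positive, with medians of -0.18 (mitotic) and -0.20 (replication), and the DA arrays lay below the aorta arrays for 23 of 37. Such a separation was seen for 37.8% of all genes and 57.5% of those in the members' range of level. None was called by limma, where 14% of all genes were called, and 9 members were at an unadjusted p under 0.05, against 29.5% of all genes. The smallest p-values belonged to Kif4a (-0.47 ± 0.14, adjusted p = 0.0509), Kif11 (-0.39 ± 0.13, adjusted p = 0.0807) and Ccne2 (-0.47 ± 0.16, adjusted p = 0.0894), and none passed in limma. Rrm2 (0.12) and Ccnb1 (0.05) were the 2 genes with a positive difference. The shift was that of genes of the same level: over the bin median it was 0.00 for the mitotic and -0.04 for the replication genes. The medians themselves turned to 0.03 and 0.01 when arrays were centred on brighter genes, with 22 genes positive, and 9 and 11 were positive with repeated quantile normalization and cyclic loess. With array weights 7 members were called, and with only the 4 F344 arrays 4.

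In BN, most differences between DA and aorta were positive and small. None of the 37 genes was called by limma, against 1.81% of all genes, and 1 was at an unadjusted p under 0.05, against 14% of all genes. That gene was Kif20a (0.38 ± 0.14, adjusted p = 0.24), followed by Ect2 at 0.35 and Top2a at 0.25. The medians were 0.06 and 0.05, and 27 of 37 differences were positive, against 49.8% of all genes and 40.4% in the members' range of level. With either centring 32 were positive, and 19 without BN aorta replicate 1. Over genes of the same level, 30 of 37 lay above the bin median, by a median of 0.11 (mitotic) and 0.09 (replication). The BN DA arrays lay above the BN aorta arrays for 10 genes, against 18.7% of all genes and 12.7% in the range, and below them for 1, against 18.5%.

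Whether the tissue difference itself differed between the strains was tested with the interaction. It called 0 members and 0 of all genes in limma, and 8 members were at an unadjusted p under 0.05, against 9.67% of all genes. The interaction was positive for 36 of 37 genes, against 53.1% of all genes and 71.6% in the members' range of level, with medians of 0.28 and 0.24. It was positive for 30 genes with repeated quantile normalization or cyclic loess and for 25 with either centring. Kif4a (0.67 ± 0.19, adjusted p = 0.349), Nusap1 (0.53 ± 0.16, adjusted p = 0.377) and Ccne2 (0.67 ± 0.23, adjusted p = 0.434) had the smallest p-values in limma. In Ttk, Kif4a, Nusap1, Kif23 and Top2a the DA arrays were below the aorta arrays in F344 and above them in BN, a pattern that 2.7% of all genes had.

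Averaged over the tissues, Ect2 was the 1 member called, with BN higher by 0.60 ± 0.12 (limma, adjusted p = 0.0427), where 2.65% of all genes were called. Kif4a (0.44 ± 0.10, adjusted p = 0.0512) and Aurkb (0.35 ± 0.09, adjusted p = 0.063) had the next smallest p-values, and 17 members were at an unadjusted p under 0.05, against 19% of all genes. The count for this average was 4 without BN DA replicate 1, 3 without BN DA replicate 2 and 0 without any other array. Averaged over the strains, limma called 0 members between DA and aorta, where 16.6% of all genes were called, and 0 were at an unadjusted p under 0.05, against 30.2%. The smallest p-values there were those of the helicase genes Mcm5 (-0.20 ± 0.09, adjusted p = 0.178), Mcm2 (-0.23 ± 0.11, adjusted p = 0.183) and Mcm7 (-0.20 ± 0.10, adjusted p = 0.21).

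Mitotic and replication genes were compared through their means on each array. The strain difference in the DA was larger for the mitotic genes by 0.10, with a value of 0.15 without BN DA replicate 1 and 0.04 without BN DA replicate 2, and it was not tested. In F344, mitotic and replication genes differed by 0.01 in their tissue difference. The classes overlapped by role: the median strain difference in the DA was 0.57 for spindle motors and 0.45 for checkpoint genes, but 0.20 for the mitotic entry cyclins with Cdk1, below the helicase genes at 0.25 and the nucleotide synthesis genes at 0.34.

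The wider cell cycle lists, 181 genes outside the members of which 142 were tested, had positive strain differences in the DA for 125. Of all genes 49.5% were positive, and of those in the members' range of level 66.7%. Of the 142, 13 (9.15%) were called higher in BN and 0 lower (limma), and the median difference was 0.30. Of all genes 2.43% were called higher and of those in the range 3.88%, shares that also apply to the single lists below. Prim1, the primase subunit that makes the first RNA primer, was at 8.60 and 7.95 in F344 DA, 9.69 and 10.15 in BN DA, 8.92 and 8.60 in F344 aorta, and 9.66 and 9.89 in BN aorta. BN was above F344 in both tissues, and the difference in the DA was 1.64 ± 0.24 (limma, adjusted p = 0.0126). Of 29 replication fork and chromatin assembly genes 4 were called, among them Pola1 (0.92), the catalytic subunit of the polymerase that extends those primers, and Pole3 (0.77). Of 19 kinetochore genes 3 were called, Ska1 (1.19), which couples kinetochores to microtubules, Cenpk (0.64) and Ndc80 (0.62). Of 17 other spindle and cytokinesis genes 4 were called, including Cep55 (0.78), a midbody protein, Kif15 (0.74), a spindle motor, and Sass6 (0.72), which seeds new centrioles. In the aorta the strain difference was 0.56 for Ska1, -0.21 for Cenpk, 0.24 for Ndc80, 0.33 for Cep55, 0.23 for Kif15 and 0.26 for Sass6. None of these was called there, but Ska1 (0.88) and Cep55 (0.56) were called in the strain average (limma). Orc4 (0.79), of the origin recognition complex, was the 1 called of 16 licensing and firing genes, and Stag1 (0.77), a cohesin subunit, the 1 called of 9 condensin and cohesin genes. No gene was called among 6 G1 cyclins and CDKs (median 0.07), 7 CDK inhibitors and antiproliferative genes (median 0.01), 11 other nucleotide synthesis genes (median 0.07), 16 mitotic entry and APC/C regulators (median 0.19), or 12 E2F, RB and DREAM regulators (median 0.37). The count of 13 became 1 without F344 DA replicate 1 and 0 without replicate 2, 7 without either F344 aorta replicate, 6 with either centring and 2 with only the 4 DA arrays, and 19 without BN DA replicate 1.

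Between DA and aorta in F344, 9 genes of the wider lists were lower in the DA and 0 higher (limma, adjusted p under 0.05), which is 6.34% of them, between the 5.12% of all genes and the 8.16% of genes in the members' range of level that were lower. They included the transcription factors E2f1 (-0.73) and Mybl2 (-0.61), which drive S phase and mitotic genes, E2f5 (-0.73), which acts with the RB family, and the phosphatase Cdc25c (-0.48), which activates CDK1. The CDK inhibitor Cdkn1a was lower as well (-0.59). The count of 9 became 3 and 0 without F344 DA replicate 1 or replicate 2, 0 and 1 without F344 aorta replicate 1 or replicate 2, 2 with either centring, and 20 without either BN DA replicate. In BN the 1 gene called was Cenpk, higher in the DA by 0.77, and in the aorta 0 were called between strains. Averaged over the tissues 7 were higher in BN (4.93%), against 1.63% of all genes and 2.48% in the members' range of level. Averaged over the strains 8 were lower in the DA (5.63%), fewer than the 6.47% of all genes and 9.89% in that range, and 1 was higher, against 10.1% of all genes.

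Markers of other cells moved along with these comparisons. The mean of 12 endothelial markers was 8.56 and 8.49 in F344 DA and between 8.82 and 9.09 on the other 6 arrays, and 6 of them were lower in DA than in aorta in F344 (limma). The mean of 14 macrophage markers was 7.27 and 7.16 in F344 DA, 7.39 and 7.74 in BN DA and between 7.57 and 8.02 in both aortas. Adventitial fibroblast markers (8 genes) were at 10.23 and 10.11 in F344 DA and between 10.33 and 10.56 elsewhere, and epithelial markers (5 genes) at 6.40 and 6.41 against 6.56 to 6.94. The means of these 4 lists were thus lowest on both F344 DA arrays, as were those of the members and of genes in their range of level. Single markers went both ways between DA and aorta in F344 (limma, adjusted p under 0.05). The fibroblast marker Dpep1 (1.94) and the epithelial marker Epcam (0.81) were higher in the DA, while Pi16, Pdgfra, Scara5, Krt8 and Krt18 were lower. Between the strains in the DA, the markers called were Cd4 (1.01), C1qc (0.81), Krt8 (0.77) and Sox17 (0.63). All were higher in BN, as the called members were (limma, adjusted p under 0.05), and 2.43% of all genes were called higher. Smooth muscle genes had means between 11.59 and 11.96 on the DA arrays and between 11.26 and 11.51 on the aorta arrays, so the defining markers of the vessel wall were high in all groups. Erythroid markers were higher on replicate 1 of each group (7.58 to 8.36) than on replicate 2 (7.06 to 7.40). The mean of the lymphocyte markers was raised only on BN DA replicate 1, though not every marker followed it. Cd4 was also at 7.33 on BN DA replicate 2, against 6.67 and 6.54 in F344 DA, and Cd2 was not raised on BN DA replicate 1 (5.46). Without BN DA replicate 1 the mitotic median for BN minus F344 in the DA was 0.37. Without BN DA replicate 2, which had the raised heart muscle markers, it was 0.32. The part of the endothelial, macrophage, lymphocyte, fibroblast, epithelial and erythroid markers in the result was not tested.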

How the data were processed

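Total RNA of pooled DA and aorta was hybridized to 8 arrays. Values were deposited on a log2 scale, judged from their range of 1.07 to 14.15, and used as they stood. RMA (background correction, normalization and probe set summary) is named per the submitters' processing notes, while its version, settings and genome build were not given in the sources used here. Platform annotation of 2016 gave 1 symbol for 15310 of 29215 probe sets, several for 323 and none for 13582.

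One limma model (version 3.58.1, R 4.3.3) with 4 group means was fitted to all arrays (4 residual and 5.25 prior degrees of freedom). Tests were two-sided, adjusted by Benjamini-Hochberg over 14506 genes and called under 0.05. The members and lists were chosen with earlier results of these data known. Per-array values are given for Top2a, Cdk1, Ccnb1, Mcm2 and Pcna and for up to 4 called mitotic and 4 called replication genes per contrast; where fewer than 3 were called, the 3 smallest p-values are given, and from each wider list up to 3 called genes. Values of Prim1, Rag1, Tnnt2 and Actc1 were added after their values were seen. The script was tested on simulated data. The number of arrays limits the precision.

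The alternatives were a mean-variance trend, robust moderation, other normalizations and centrings, other probe set rules, dim or receptor genes left out, array weights, a block on replicate number, fits of the 4 arrays compared, 40 level bins and each array left out. Centring on genes of the members' level and the array means without each array were chosen after seeing the data.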

Additional observations from a re-analysis of the deposited data

How the results depend on the processing

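The 8 called genes stayed higher in BN DA under all 21 alternatives, of which only the other normalizations and centrings could have changed a sign. The number of called genes did not hold. It was 3 with repeated quantile normalization, 1 with cyclic loess, 2 with array weights and 0 with either centring or with only the 4 arrays compared, and 0 to 7 with an array left out. In F344, the count of members called between DA and aorta was 0 and became 1 with a mean-variance trend, 7 with array weights, 4 with only the 4 arrays compared, and 0 to 2 with an array left out. For the strain average the count of 1 became 3 with the trend, 4 without dim genes, 2 without receptor genes, 2 with array weights, 0 with quantile normalization, cyclic loess or either centring, and 0 to 4 with an array left out. The cause was not tested.

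The labels do not say that a replicate number marks a shared batch, and the correlation of replicate differences between groups ran from 0.03 to 0.52, with 5 of 6 (not all, the bar set for pairing) over 0.1, so the numbers were not taken as pairs. A shared effect of the number is not settled by these values, since erythroid markers were also higher on replicate 1 of each group. With the replicate block, 11 members were called between strains in the DA against 8, 2 members were called between DA and aorta in F344 and 6 for the strain average, and 37 genes of the wider lists were higher in BN DA, against 13 without the block.

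With quantile normalization, cyclic loess, centring on brighter genes and centring on genes of the members' level, in that order, the mitotic median for DA minus aorta in F344 was -0.075, -0.032, 0.032 and 0.027, and the replication median was -0.121, -0.079, 0.0098 and 0.005, so centring reversed both. For the interaction the mitotic median was 0.193, 0.190, 0.125 and 0.127, and the replication median 0.145, 0.131, 0.082 and 0.084. For BN minus F344 in the DA the replication median was 0.180, 0.162, 0.118 and 0.120. With the last 3 of these settings, the mitotic median for BN minus F344 in the DA was 0.291, 0.253 and 0.254, for the tissue average the mitotic median was 0.030, 0.072 and 0.068 and the replication median -0.011, 0.044 and 0.041 (reversed by centring), and for the strain average the replication median was 0.106, 0.087 and 0.087. Centring on brighter genes gave a replication median of 0.096 for DA minus aorta in BN.

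With an array left out, the mitotic median ranged from 0.269 to 0.464 for BN minus F344 in the DA, 0.023 to 0.155 for DA minus aorta in BN and 0.171 to 0.339 for the strain average. The replication median ranged from -0.250 to -0.191 for DA minus aorta in F344, -0.016 to 0.084 for DA minus aorta in BN, -0.0068 (without BN aorta replicate 2, reversed) to 0.113 for BN minus F344 in the aorta and 0.131 to 0.288 for the interaction. The mitotic minus replication difference ranged from 0.044 to 0.150 for BN minus F344 in the DA, and without BN DA replicate 2 it reversed to -8e-04 (highest 0.106) for DA minus aorta in BN and to -0.0066 (highest 0.10) for the interaction. With 2 arrays a group, signal over background and depth are not known, and differences of the size seen in the aorta cannot be told from the spread.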

Other observations

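The annotation gave 4 members a second probe set. For Ccnb2 and Rrm2 its strain difference in the DA was 0.22 and 0.17, against 0.20 and 0.18 for the probe set used. For Nek2 the second probe set held the same values as the first on all 8 arrays. Its difference of 0.16 is therefore not a second measurement. For Rrm1, the large subunit of ribonucleotide reductase, the second probe set lay between 5.43 and 5.98 on the 8 arrays and had a difference of 0.04, against 0.39 for the brighter one.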
